A study of Mus musculus with 4 samples.

Results

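The transcription factors that direct DC development were examined in hematopoietic progenitors that lacked Bcl11a. The set held 9 genes, *Irf8*, *Irf4*, *Irf7*, *Spib*, *Batf3*, *Nfil3*, *Relb*, *Zbtb46* and *Runx2*, and its members were the probe sets that the array annotation names with one of these symbols alone. A probe set was found for 8 of the 9, 1 each, among 19938 genes in all. *Runx2* has no probe set under its own name in the annotation used here and is not analysed further. RNA came from 4 pools of sorted, donor-derived BM cells, 1 array each: GMPs and MPPs, each from WT and from Bcl11a-/- donors. GMPs give rise to granulocytes and macrophages, and MPPs, sorted as LSK cells without CD150, can still form all blood lineages. All 4 groups came from lethally irradiated B6.SJL recipients of fetal liver cells, and the labels place the sort 4 weeks after transfer (4 or 6 weeks for the chimeras by the paper's methods). The labels give Bcl11a(+/+) or Bcl11a(-/-) as genotype and B6.SJL as genetic background for every sample. In the paper's methods B6.SJL is the strain of the recipients, while the sorted cells were donor-derived. The Bcl11a-/- donors lack the first exon of the gene.

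DCs comprise cDCs, which present antigen to T cells, and pDCs, which secrete type I interferon. Irf8 is needed for pDCs and for the CD8+ subset of cDCs, where it acts with Batf3, an AP-1 family factor, and Nfil3, a basic leucine zipper factor, acts in the same cDC subset. Spi-B, an ETS factor related to PU.1, acts in pDCs and in B cells, Irf4 and RelB act in the other cDC subset, Zbtb46 marks committed cDCs, and Irf7 switches on type I interferon genes. Several of these factors are also used outside the DC lineage, *Spib* and *Irf4* in B cells and *Irf8* in monocytes.

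Signal is given on the log2 scale, and a difference is that of 2 arrays on this scale, so that 1 unit is 2-fold. Over all probe sets counted, median signal lay between 5.50 and 5.70 on the 4 arrays. With 1 array per condition there is no spread between replicates, no test was possible, and no order of levels or difference has an error. A difference greater than 2-fold, the study's threshold, was counted, and counts are read against the share of all genes past it. Signals of different genes come from different probes and are not compared with each other. Fewer cells of one kind in a sorted pool and less RNA per cell cannot be told apart.

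Between the WT arrays, marker genes of both populations lay in the direction of the labels. All 6 measured MPP marker genes had more signal in WT MPPs than in WT GMPs, 2 of them by more than 2-fold. All 8 GMP marker genes had less, 7 of them by more than 2-fold. Of all genes, 42.8% had less signal in WT MPPs, and 4.14% differed by more than 2-fold either way. In WT MPPs 6 of 7 B lineage and 5 of 7 erythroid markers were also over 2-fold higher. *Bcl11a* itself was 1.25 log2 units lower in Bcl11a-/- than in WT MPPs and 0.83 units lower in Bcl11a-/- than in WT GMPs, and its probes may still detect transcript that lacks the first exon. *Flt3*, which encodes the receptor for the main DC growth factor, was 1.60 units lower in Bcl11a-/- MPPs and 0.28 units lower in Bcl11a-/- GMPs.

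*Spib*, *Irf8* and *Irf4* had less signal in Bcl11a-/- than in WT cells of both populations. *Irf4* was under 5 on all 4 arrays, and with such values set to 5 it did not differ. The share of all genes lower in both was not counted, so these 3 are not read as a group. Their sign is the only reason that the sequence before the RefSeq start of each is shown (GRCm38.p6, the 250 bases upstream, 5′ to 3′ on the gene's strand). The window of *Spib* is chr7:44532072-44532321 on the minus strand, that of *Irf8* is chr8:120736108-120736357 on the plus strand, at the first of its 2 listed starts, and that of *Irf4* is chr13:30748983-30749232 on the plus strand. Capitals mark matches to any of 6 motifs.
Spib: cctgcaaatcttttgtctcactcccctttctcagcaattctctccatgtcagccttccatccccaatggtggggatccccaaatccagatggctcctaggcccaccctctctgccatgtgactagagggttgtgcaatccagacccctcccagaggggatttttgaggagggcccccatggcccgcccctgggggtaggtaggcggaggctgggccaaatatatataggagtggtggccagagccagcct
Irf8: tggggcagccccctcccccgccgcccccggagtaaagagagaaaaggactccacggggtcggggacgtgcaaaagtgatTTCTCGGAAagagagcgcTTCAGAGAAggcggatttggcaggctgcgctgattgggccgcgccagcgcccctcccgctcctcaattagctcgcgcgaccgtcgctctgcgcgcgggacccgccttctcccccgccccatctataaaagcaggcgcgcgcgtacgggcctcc
Irf4: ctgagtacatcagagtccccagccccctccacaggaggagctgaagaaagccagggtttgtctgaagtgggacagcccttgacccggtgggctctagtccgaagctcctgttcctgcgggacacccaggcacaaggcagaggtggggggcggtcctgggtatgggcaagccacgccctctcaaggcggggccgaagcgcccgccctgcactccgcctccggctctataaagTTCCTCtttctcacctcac

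The motifs were searched on both strands. They were TGACCA, bound by Bcl11a, GAGGAA, bound by PU.1 and Spi-B, the interferon response type of IRF motif, in which GAAA recurs after any 2 bases, the ETS-IRF composite, in which GGAA takes the place of its first unit, TGANTCA of AP-1 and TTCNNNGAA of STAT factors, the last added after the *Irf8* window was read. The first GGAA of the composite overlaps the end of the PU.1 letters, and the IRF motif and the composite both end in GAAA. *Irf8* held 2 STAT matches, which start 171 and 153 bases before its start site, and 7.02% of all 32851 upstream windows held at least 1. *Irf4* held 1 GAGGAA match on the minus strand, its first base 19 bases before the start, and 23.3% of all windows held one. *Spib* held none of the 6, and neither did the window at the second listed *Irf8* start. TGACCA, present in 11.4% of windows, the IRF motif (2.98%), the composite (2.30%) and TGANTCA (6.75%) were in none of the 3 windows shown. Among the windows not shown, *Batf3* held 1 STAT and 1 GAGGAA match and *Zbtb46* held 1 TGANTCA match. Those of *Irf7*, *Nfil3* and *Runx2* held no match. A match is a description of letters only, and its absence covers these 250 bases only. Of the 9 genes, 8 had a window in the table.

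*Spib* was the 1 member that differed by more than 2-fold, and it did so in both populations. Its signal was 7.15 in WT MPPs, 6.38 in WT GMPs, 5.66 in Bcl11a-/- MPPs and 5.33 in Bcl11a-/- GMPs. Both WT arrays were above both Bcl11a-/- arrays. It was 2.81-fold lower in Bcl11a-/- than in WT MPPs, a difference of -1.49, and 0.602% of all genes were at least as far down. In GMPs it was 2.07-fold lower, a difference of -1.05, and 0.226% of genes were at least as far down. Of 19938 genes, 19 (0.0953%) were over 2-fold lower in both. Those 19 also held 4 of the 7 measured B lineage markers, *Cd79a*, *Ebf1*, *Vpreb1* and *Vpreb3*, the monocyte marker *Ly86* and the cDC gene *Kmo*. With values under 5 set to 5, *Cd79a*, *Ebf1* and *Kmo* were no longer over 2-fold in GMPs. *Spib* stayed over 2-fold in both populations under each of the floor, centring and quantile settings, between -1.54 and -1.49 in MPPs and between -1.09 and -1.05 in GMPs.

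**Figure D1:**
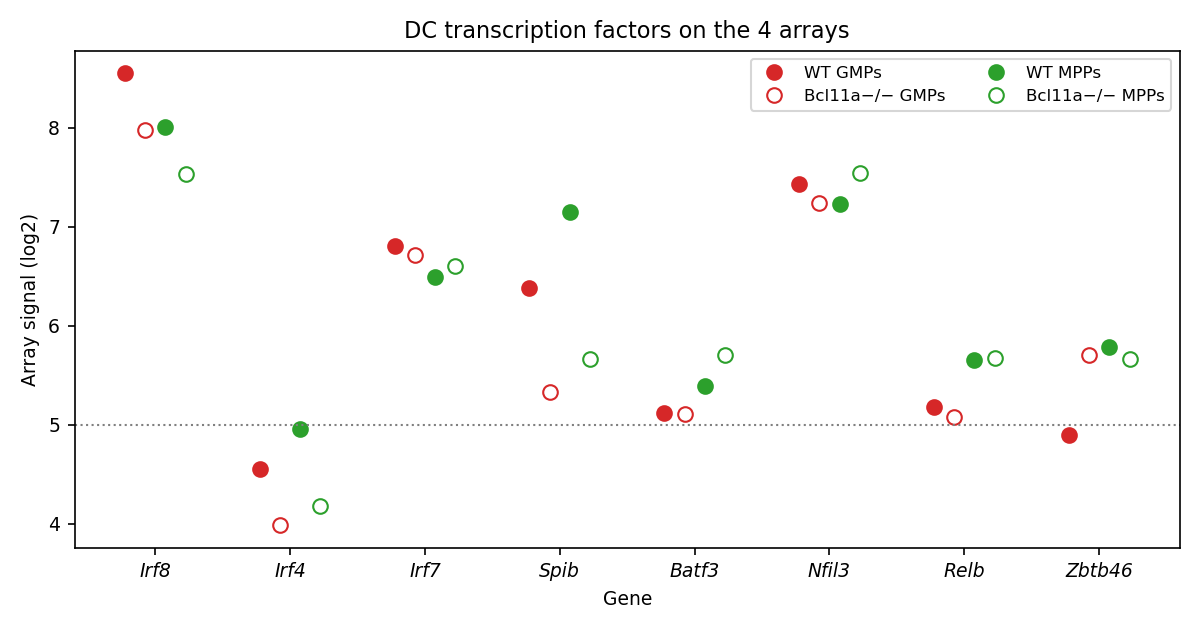
Array signal (log2, y axis) of the 8 DC transcription factors (x axis) in GMPs (red) and MPPs (green), filled for WT and open for Bcl11a-/-, 1 array per point. The dotted line marks a log2 signal of 5, and heights are to be compared within a gene only. *Spib* is at 7.15 and 6.38 in the WT arrays and at 5.66 and 5.33 in the Bcl11a-/- arrays.

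*Irf8* was lower in both Bcl11a-/- populations by less than 2-fold. Its signal was 8.55 in WT GMPs, 8.01 in WT MPPs, 7.98 in Bcl11a-/- GMPs and 7.53 in Bcl11a-/- MPPs. Bcl11a-/- GMPs thus lay close to WT MPPs, and within each population the Bcl11a-/- array was the lower. The difference was -0.57 in GMPs (1.49-fold lower), with 1.62% of genes at least as far down, and -0.48 in MPPs (1.40-fold lower), with 9.34% at least as far down. *Irf8* differed by nearly the same amount in the 2 populations, the MPP difference minus the GMP difference being 0.09.

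*Irf4* was also lower in both, at low signal. It was at 4.96 in WT MPPs, 4.56 in WT GMPs, 4.18 in Bcl11a-/- MPPs and 3.99 in Bcl11a-/- GMPs, the same order as *Spib*. The difference was -0.78 in MPPs (1.72-fold lower) and -0.57 in GMPs (1.49-fold lower). All 4 values are under 5, and with such values set to 5 both differences were 0.

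*Irf7*, the third IRF family member of the set, differed little. In GMPs its signal was 6.80 (WT) and 6.71 (Bcl11a-/-), and in MPPs it was 6.49 (WT) and 6.61 (Bcl11a-/-). The difference was -0.09 in GMPs and 0.11 in MPPs, 1.06-fold lower and 1.08-fold higher. The 4 values spanned 0.31 units, as did those of *Nfil3*, the smallest ranges of the 8 members.

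*Zbtb46* was the 1 member with more signal in Bcl11a-/- GMPs. In GMPs it was at 4.90 (WT) and 5.71 (Bcl11a-/-) and in MPPs at 5.78 (WT) and 5.67 (Bcl11a-/-), so that the WT GMP array stood below the other 3. The difference was 0.81 in GMPs (1.75-fold higher), and 0.647% of genes were at least as far up. In MPPs it was -0.12 (1.08-fold lower). The MPP difference minus the GMP difference was -0.92, and 2.77% of genes had a value at least as low. Setting values under 5 to 5 gave 0.71 in GMPs.

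*Batf3* had signals of 5.12 in WT GMPs and 5.11 in Bcl11a-/- GMPs, and of 5.39 in WT and 5.70 in Bcl11a-/- MPPs. Its difference was -0.01 in GMPs and 0.31 in MPPs. *Nfil3* had signals of 7.43, 7.24, 7.23 and 7.54 in the same order of arrays. It differed by -0.19 in GMPs and by 0.31 in MPPs, and 20.2% of genes were at least as far up in MPPs. *Relb*, an NF-κB family member, had signals of 5.18, 5.08, 5.65 and 5.68, again in that order. Its difference was -0.10 in GMPs and 0.02 in MPPs, and the MPP value turned to between -0.05 and -0.02 when the arrays were centred or quantile normalized anew. Thus the members used by the CD8+ and the other cDC subsets, *Irf8* and *Irf4* apart, were all within 1.24-fold between WT and Bcl11a-/- MPPs. Of these, *Batf3* and *Relb* had signals under 6 on all 4 arrays, as *Irf4* and *Zbtb46* did. At such signals a drop may not be seen, so these values do not show that *Batf3* and *Relb* were unaffected.

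In MPPs, 1 of 8 members was lower by more than 2-fold in Bcl11a-/- cells, none was higher and 7 were within 2-fold, where 2.92% of all genes were over 2-fold, 2.02% lower and 0.908% higher. The members' median difference was -0.05, and that of all genes was 0.05. In GMPs the count was again 1 lower, none higher and 7 within 2-fold, where 0.642% of genes were over 2-fold, 0.281% lower and 0.361% higher. There 7 of 8 members had a lower value in Bcl11a-/- cells, where 47.8% of genes did, and the median was -0.14 against 0.01 for all genes. For *Batf3*, *Irf7*, *Relb* and *Nfil3* those GMP differences were at most 0.19 in size. Of all genes, 95% lay within 0.83 units in MPPs and 0.53 units in GMPs. *Spib* in MPPs lay outside the first bound, and *Spib*, *Zbtb46*, *Irf8* and *Irf4* in GMPs outside the second. There *Irf8* lay near the bound, at -0.57, and at -0.53 with new quantile normalization. *Irf4* in GMPs was at 0 with values under 5 set to 5.

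**Figure D2:**
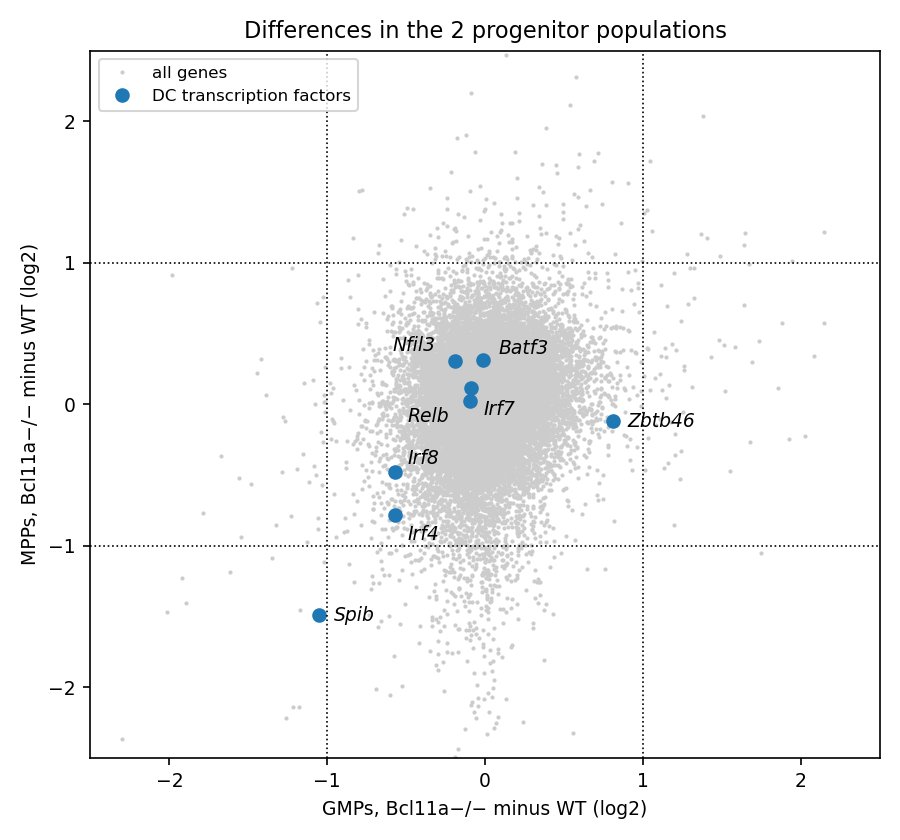
Log2 difference, Bcl11a-/- minus WT, in GMPs (x axis) and MPPs (y axis) for all genes (grey) and the 8 DC transcription factors (blue), 1 array per condition. Dotted lines mark 2-fold, and 27 genes lie outside the axes, which end at 2.5. *Spib* is the member beyond 2-fold on both axes, at -1.05 and -1.49, and *Zbtb46* stands to the right at 0.81.

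Between the WT populations no member differed by more than 2-fold, where 4.14% of all genes did. *Zbtb46* and *Spib* had the widest gaps, 1.84-fold and 1.70-fold more signal in MPPs, followed by *Irf8*, 1.45-fold less. *Relb* was 1.39-fold, *Irf4* 1.32-fold and *Batf3* 1.21-fold higher in WT MPPs, and *Irf7* was 1.24-fold and *Nfil3* 1.15-fold lower. Between the Bcl11a-/- populations again none was over 2-fold, where 8.18% of genes were. Here *Batf3* and *Relb* were each 1.51-fold higher in MPPs and *Irf8* 1.36-fold lower. These comparisons use the same 4 arrays as the genotype comparisons and are not independent of them. For *Spib* the gap between MPPs and GMPs was 0.77 units in WT and 0.33 units in Bcl11a-/- cells. For *Irf4* it was 0.41 and 0.19 units, the latter -0.02 with the arrays quantile normalized anew. For *Zbtb46* it was 0.88 units in WT and -0.04 units in Bcl11a-/- cells.

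For *Irf8* and *Spib*, the members whose signals spanned at least 1 unit, the 3 genes of most similar profile were found by the root mean square distance of the 4 values, each gene centred on its mean, among 10151 genes with a signal of at least 6 on some array. With 4 points, close profiles arise among so many genes without any relation. *Irf8* was nearest to *Plekhb2* (distance 0.03 units), *Colgalt1* (0.05) and *Wdr5b* (0.06). *Spib* was nearest to *Ikzf3* (0.15), which encodes the lymphoid zinc finger factor Aiolos, *Akap12* (0.17), a kinase anchoring protein gene, and *Cd22* (0.19), which encodes an inhibitory receptor of B cells. *Ikzf3* was 1.21 units lower in Bcl11a-/- MPPs and 0.71 units lower in Bcl11a-/- GMPs. *Akap12* was 1.49 units lower in Bcl11a-/- MPPs, as *Spib* was, and 0.73 units lower in Bcl11a-/- GMPs. Signals of *Ikzf3* were under 5 on both Bcl11a-/- arrays, and those of *Akap12* and *Cd22* were under 5 in Bcl11a-/- GMPs. Setting such values to 5 would make the differences that use them smaller, so these are less certain. *Spib* itself was above 5 on all 4 arrays.

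Over 7 lists of relatives and partners of these factors, 3 of 62 measured genes (4.84%) were over 2-fold in MPPs, 2 lower and 1 higher in Bcl11a-/- cells, where 2.92% of all genes were. In GMPs none of the 62 was over 2-fold, where 0.642% of all genes were. Among genes with a signal of at least 6 on either array compared, 4.98% were over 2-fold in MPPs and 0.867% in GMPs. The 4.84% of the lists in MPPs was thus close to the share among such genes. Of the 62, the 2 that were lower in MPPs were *Bcl11a* and *Flt3* themselves. The 1 that was higher was *Id2*, an inhibitor of E proteins used by cDCs, at 1.16 units. *Id2* went the other way in GMPs, at -0.53. Among these regulators *Klf4*, a monocyte factor, was 0.65 units lower in Bcl11a-/- GMPs, and *Zeb2*, a zinc finger factor used by pDCs, was 0.58 units lower in Bcl11a-/- MPPs.

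Of the other IRF family genes and the Irf2 binding proteins, 8 were measured and all were within 2-fold in both populations. Their median difference was -0.23 in MPPs and -0.14 in GMPs. *Irf9*, part of the interferon-activated complex ISGF3, was 0.61 units lower and *Irf1* 0.44 units lower in Bcl11a-/- MPPs, and *Irf2bp2* was 0.60 units higher. Among the ETS partners *Spi1*, which encodes PU.1, the close relative of Spi-B, was at 9.25 in WT and 8.57 in Bcl11a-/- MPPs, a difference of -0.68, and at 9.87 in WT and 9.60 in Bcl11a-/- GMPs, a difference of -0.27. *Ets1* differed by -0.59 in MPPs and *Spic* by -0.09. The 7 ETS genes had a median of -0.19 in MPPs (-0.03 with new quantile normalization) and 0.09 in GMPs (0 with values under 5 set to 5).

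*Batf*, which can stand in for Batf3, differed by -0.22 in MPPs and 0.14 in GMPs, and *Batf2* by 0.61 in GMPs. The 6 BATF and AP-1 genes, with *Jun* at -0.41 in GMPs, had medians of -0.24 in MPPs (-0.07 with new quantile normalization) and -0.09 in GMPs. Of the RUNX family, *Runx3*, a factor of lymphoid cells and of some DCs, was 0.87 units higher in Bcl11a-/- MPPs (1.14, over 2-fold, with new quantile normalization) and differed by -0.01 in GMPs, and *Runx1* differed by -0.01 in MPPs and 0.11 in GMPs. The RUNX list also held *Cbfb*, *Runx1t1*, *Cbfa2t2* and *Cbfa2t3*, which are not RUNX factors. The median of these 6 genes was 0.05 in MPPs, where settings gave -0.0047 to 0.11. In GMPs it was -0.03, and 0.01 to 0.02 after lowess centring or new quantile normalization.

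In the NF-κB family, 10 of 13 listed genes were measured. *Bcl3*, an atypical IκB protein gene, and *Rela* were 0.91 and 0.82 units higher in Bcl11a-/- MPPs, while *Rel* was 0.39 units lower and *Nfkb2*, the partner of RelB, differed by 0.10. The list median of -0.14 in MPPs became 0.00 with new quantile normalization, and in GMPs it was -0.16. All 8 genes of the PAR bZIP and C/EBP list, relatives of Nfil3, had higher values in Bcl11a-/- MPPs, with a median of 0.24, led by *Cebpe* and *Cebpb*, factors of granulocytes and inflammation, at 0.87 and 0.81. In GMPs their median was -0.10, and *Hlf*, a factor of stem cells, was 0.73 units lower.

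**Figure D3:**
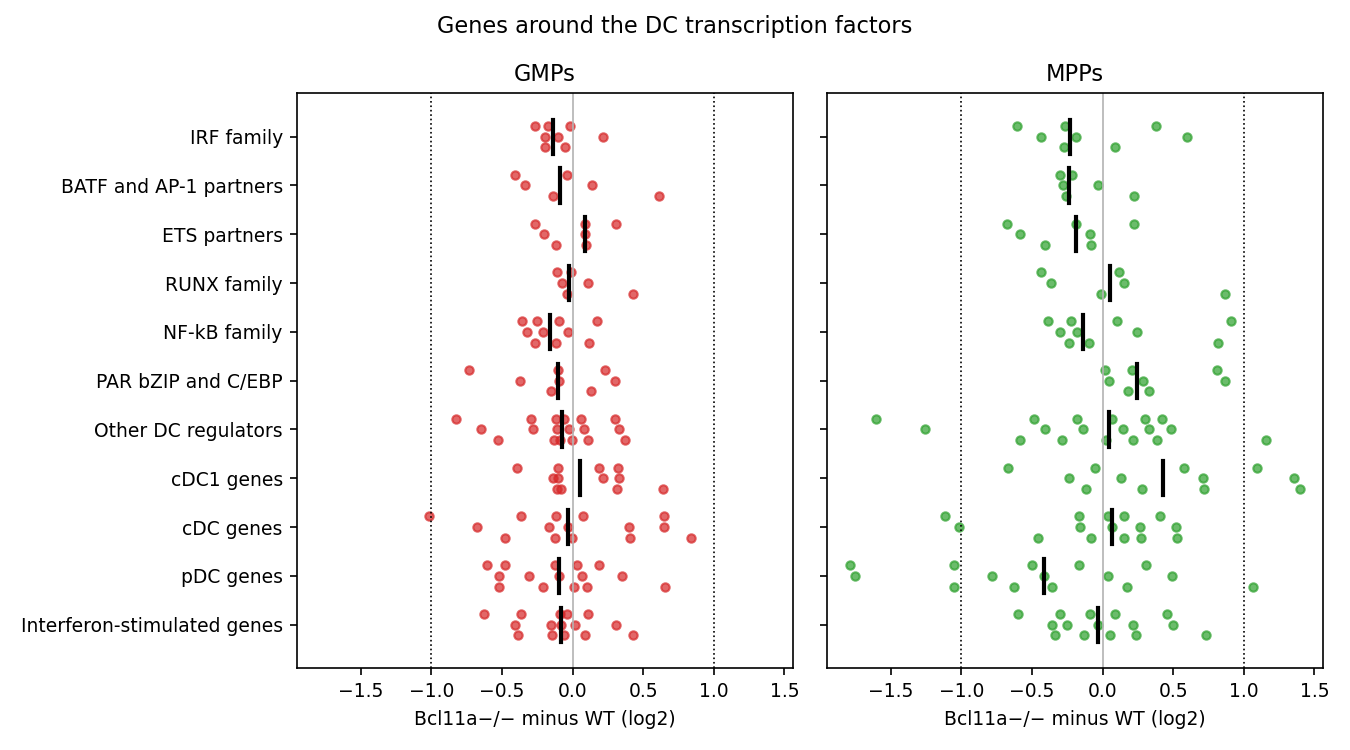
Log2 difference, Bcl11a-/- minus WT (x axis), of each measured gene of 11 lists (rows) in GMPs (left) and MPPs (right), 1 point per gene and 1 array per condition. Black bars are list medians and dotted lines mark 2-fold. In GMPs *Kmo* at -1.02 is the point beyond 2-fold, and in MPPs the pDC list has a median of -0.42 and the cDC1 list one of 0.43.

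Genes that mature DCs use were mixed. Of 15 measured pDC genes, 5 passed 2-fold in MPPs, 4 lower and 1 higher in Bcl11a-/- cells, where 2.02% of all genes were lower and 0.908% higher, and the other 10 did not. Those that were lower were *Bst2*, a surface protein of pDCs, at -1.79, *Cox6a2*, a cytochrome oxidase subunit gene, at -1.76, *Atp1b1*, a sodium pump subunit gene, at -1.06, and *Unc93b1*, which carries nucleic acid sensing Toll-like receptors, at -1.05 (-0.99 after lowess centring and -0.95 with new quantile normalization). *Cyyr1* was higher, at 1.07. *Siglech*, a defining pDC gene, was at 4.83 in WT MPPs, below 5 in both GMP arrays and at 5 within rounding in Bcl11a-/- MPPs. The list median was -0.42 in MPPs (-0.16 with values under 5 set to 5), and in GMPs it was -0.10 (0 with that floor) with none of the 15 over 2-fold.

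Of 12 genes of the CD8+ type of cDC, 3 were over 2-fold higher in Bcl11a-/- MPPs and 0 lower, where 0.908% and 2.02% of all genes were. They were *Cxcl9*, a chemokine gene, at 1.40, *Tlr3*, a sensor of double-stranded RNA, at 1.35 (0.99, within 2-fold, with values under 5 set to 5), and *Naaa*, a lysosomal amidase gene, at 1.09. *Clec9a* and *Xcr1*, which define this subset, had signals under 5 on all 4 arrays, and the list median of 0.43 was 0 with values under 5 set to 5. Of 15 cDC genes, *Kmo*, an enzyme of tryptophan breakdown, and *Ccr7*, a chemokine receptor gene, were over 2-fold lower in Bcl11a-/- MPPs, at -1.11 and -1.01, where 2.02% of all genes were over 2-fold lower. *Kmo* was also over 2-fold lower in GMPs, at -1.02, where 0.281% were. With values under 5 set to 5, *Kmo* was at -0.77 in MPPs and -0.23 in GMPs, within 2-fold in both. The list median in MPPs was 0.07, and -0.03 after lowess centring or new quantile normalization. *H2-Ab1*, *H2-Aa* and *H2-Eb1*, MHC class II genes, were 0.84, 0.65 and 0.65 units higher in Bcl11a-/- GMPs. *Cd74* and *Ciita* of the same list differed by -0.0032 and 0.07 there. The median of this list in GMPs was -0.03 (0 with values under 5 set to 5), with 9 genes lower and 6 higher. None of 15 interferon-stimulated genes, downstream of Irf7 and Irf9, was over 2-fold in either population, and their median was -0.03 in MPPs (0.01 after lowess centring or new quantile normalization) and -0.08 in GMPs.

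Over the 11 lists, *Spib* and the other members apart, 13 of 119 measured genes (10.9%) were over 2-fold in MPPs, 8 lower and 5 higher, where 2.92% of all genes were. In GMPs 1 (0.840%) was, where 0.642% of all genes were. The 8 lower in MPPs include *Bcl11a*, the deleted gene itself, and *Flt3*. With a signal of at least 6 on either array compared, 11 of 89 list genes were over 2-fold in MPPs, where 4.98% of all such genes were. In GMPs 0 of 82 were, where 0.867% of all such genes were. The lists were chosen with earlier results of these data known.

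Most markers of B lineage cells and monocytes were also lower in Bcl11a-/- cells, as *Spib*, *Irf4* and *Irf8* were. All 7 measured B lineage markers were lower in both Bcl11a-/- populations, each by more than 2-fold in MPPs and 4 of them in GMPs, with medians of -3.70 and -1.16, where 2.02% and 0.281% of all genes were over 2-fold lower. With values under 5 set to 5, all 7 remained over 2-fold in MPPs and 2 in GMPs, *Vpreb1* and *Vpreb3*, and the medians were -2.72 and -0.67. Their median signal was 8.58 in WT MPPs (7.44 to 10.58) and 6.49 in WT GMPs (5.04 to 8.81). It was 5.96 in Bcl11a-/- MPPs (3.30 to 7.08) and 5.45 in Bcl11a-/- GMPs (3.39 to 8.20). These medians had the order of arrays that *Spib* and *Irf4* had, while *Cd79a* and *Cd79b* had other orders. *Cd79a*, a chain of the B cell receptor, was at 3.30 and 3.39 in the Bcl11a-/- arrays, and *Ebf1* at 3.89 and 3.88. The part of B lineage transcripts in the *Spib* and *Irf4* differences was not tested.

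Of 7 monocyte markers, 6 were lower in Bcl11a-/- MPPs and all 7 in Bcl11a-/- GMPs, with medians of -0.60 and -0.31. Over 2-fold were 2 in MPPs and 1 in GMPs, against the same shares of all genes as for the B lineage markers. Their median signal was 9.26 in WT GMPs (6.58 to 12.18) and 8.13 in Bcl11a-/- GMPs (6.29 to 11.93). In MPPs it was 8.09 for WT (7.28 to 10.18) and 7.08 for Bcl11a-/- (6.25 to 10.13). Bcl11a-/- GMPs were thus slightly above WT MPPs in these medians and slightly below them for *Irf8*. *Ly86* was lowest, at -2.14 in MPPs and -1.22 in GMPs, and *Csf1r*, the M-CSF receptor gene, was at -0.54 and -0.77. Their part in the *Irf8* difference was not tested.

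Erythroid markers moved with *Zbtb46* in GMPs. Of 7 measured, 6 were over 2-fold higher in Bcl11a-/- GMPs and none in Bcl11a-/- MPPs, where 0.361% and 0.908% of all genes were, with medians of 1.69 and 0.40. *Car2*, at 0.96 in MPPs, was at 1.10 after lowess centring and at 1.26 with new quantile normalization. Their median signal was 6.44 in WT GMPs (5.21 to 10.38) and 7.50 to 8.13 on the other 3 arrays, so that the WT GMP array was lowest for these genes as for *Zbtb46*. *Rhag*, an Rh-associated membrane protein gene, was 2.14 units and *Car1*, carbonic anhydrase, 2.08 units higher in Bcl11a-/- GMPs. The part of erythroid transcripts in the *Zbtb46* difference was not tested.

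Of 7 pDC markers, *Bst2* was over 2-fold lower in Bcl11a-/- MPPs and none was over 2-fold in GMPs, with medians of -0.16 and -0.10, both 0 with values under 5 set to 5, and median signals from 5.58 to 6.11. The 8 cDC markers had medians of 0.21 in MPPs (0.42 with new quantile normalization) and 0.16 in GMPs, both 0 with that floor, and median signals from 5.54 to 6.93, and *Flt3* was the 1 over 2-fold. In MPPs *Bst2*, *Cox6a2* and *Flt3*, at -1.79, -1.76 and -1.60, were further down than *Spib*, at -1.49. The part of DC transcripts in the *Spib* difference was not tested. Of the 8 GMP markers, 4 were over 2-fold lower in Bcl11a-/- MPPs, where 2.02% of all genes were. Among the 4 were *Ms4a3*, *Prtn3* and *Elane*, at -2.68, -2.65 and -2.44. The medians of the 8 were -1.38 in MPPs and -0.13 in GMPs. MPP markers had medians of 0.17 in MPPs and 0.18 in GMPs.

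**Figure D4:**
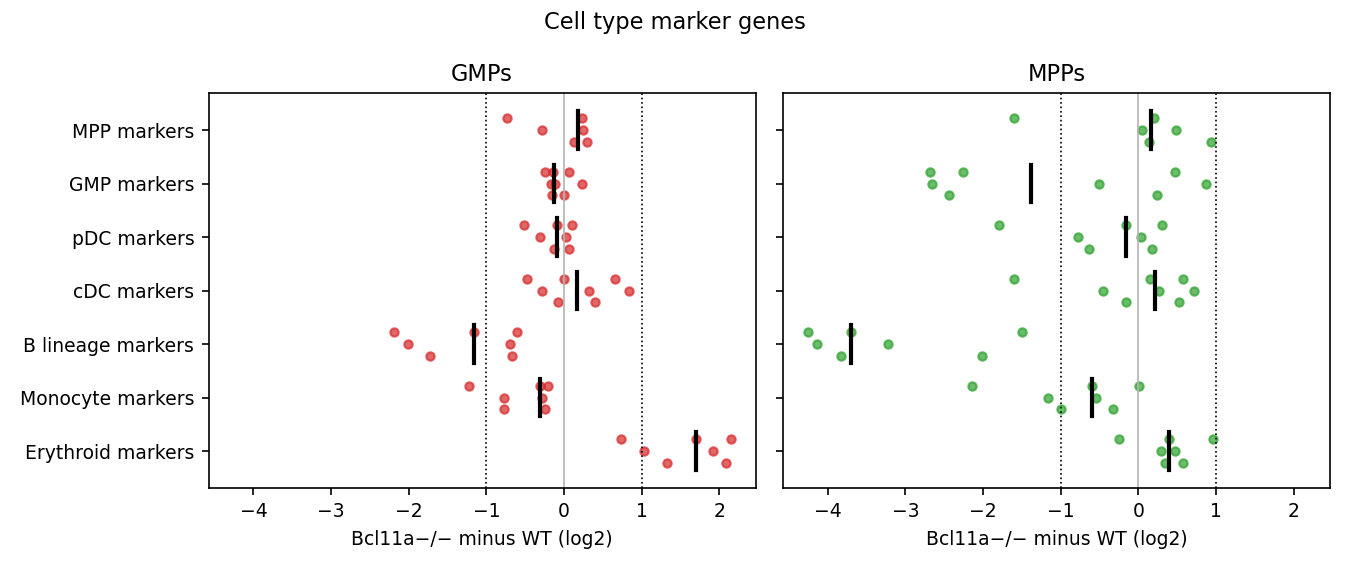
Log2 difference, Bcl11a-/- minus WT (x axis), of each measured marker gene of 7 cell types (rows) in GMPs (left) and MPPs (right), 1 point per gene and 1 array per condition. Black bars are medians and dotted lines mark 2-fold. The B lineage bar lies at -3.70 in MPPs and at -1.16 in GMPs, where the erythroid bar is at 1.69.

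**Figure D5:**
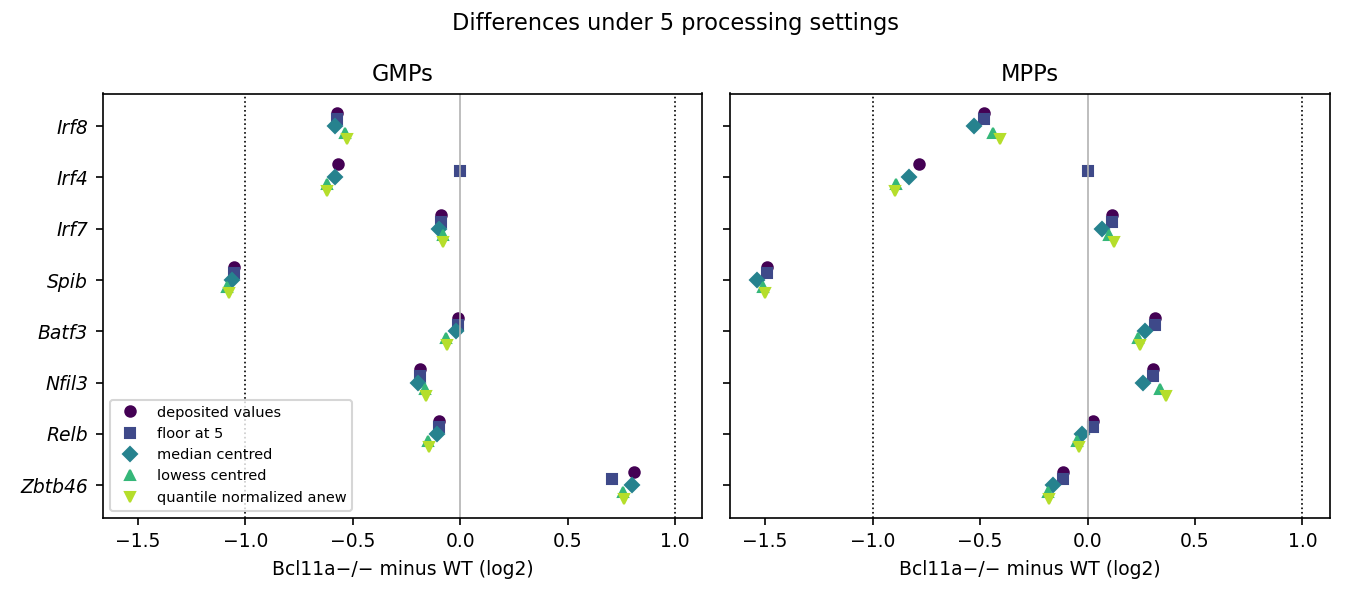
Log2 difference, Bcl11a-/- minus WT (x axis), of the 8 DC transcription factors (rows) in GMPs (left) and MPPs (right) under 5 settings, with dotted lines at 2-fold. *Spib* stays beyond 2-fold in every setting drawn, and *Irf4* falls to 0 when values under 5 are set to 5.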

How the data were processed

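Sorted cells were pooled by donor genotype, RNA was amplified and labeled with biotin (Ovation PicoSL), and the authors deposited log2 signals summarized by RMA and quantile normalized in ArrayStar, 1 value for each probe set. Quantile normalization can hide a change in total mRNA per cell. The table holds 30177 rows, from which 1329 numbered before the first annotated probe set were set aside as controls. All 4 columns were mapped to samples. Of the 28848 probe sets counted, 21789 have 1 gene symbol, 1621 several and 5438 none in the platform annotation. Probe sets that name the same single gene were averaged. The 8 member symbols were matched to RefSeq through Entrez identifiers (GRCm38.p6), and upstream sequences are RefSeq's.

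Differences were Bcl11a-/- minus WT, or MPP minus GMP, and folds are 2 raised to the size of the difference. No test was run, with 1 array per condition. The number of arrays limits the precision. The members, lists and rules were chosen with earlier results of these data known. Named genes are all members, up to 3 genes per list and direction with the largest differences, the 3 nearest profiles of members spanning at least 1 unit, *Bcl11a* and *Flt3*.

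Alternatives were dropping genes under 6 on both arrays compared, a floor at 5, centring on the median or by lowess (span 0.3, statsmodels 0.14.6), new quantile normalization of the 2 arrays compared, the brightest probe set of a gene, and thresholds of 1.5-fold or 3-fold. Steps were tested on simulated data in Python 3.11.15.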

Additional observations from a re-analysis of the deposited data

Results flagged for a closer look

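5 members had differences of opposite sign in the 2 populations, 1 array per condition, so the contrast between populations was not tested. The share of all genes with opposite signs was not counted, so the count of 5 is not read as a result. Of all genes, 44.2% were below 0 in MPPs and 47.8% in GMPs. *Zbtb46* was higher in Bcl11a-/- GMPs and slightly lower in Bcl11a-/- MPPs, and the MPP difference minus the GMP difference was -0.92. The other 4 were lower in Bcl11a-/- GMPs and higher in Bcl11a-/- MPPs. Their MPP difference minus the GMP difference was 0.50 for *Nfil3*, 0.32 for *Batf3*, 0.20 for *Irf7* and 0.12 for *Relb*. Over all genes 95% of such values were within 0.91, so that *Zbtb46* lies just outside this range and the other 4 inside it. The sign of *Relb* in MPPs turned under each of the 3 scaling alternatives.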

How the results depend on the processing

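No paired analysis was possible because each condition has 1 array. No replicate could be left out, for the same reason. The count of members over 2-fold was 1 in MPPs, 1 in GMPs and 0 in both comparisons of MPPs with GMPs, and the floor, filter, centring, quantile and brightest probe set alternatives left these counts as they were. The last changes no member, since each has 1 probe set, and the filter keeps 4 of 8 members (3 between the Bcl11a-/- populations). At 1.5-fold each of the 4 counts was 2, with *Spib* joined by *Irf4* in MPPs and by *Zbtb46* in GMPs. At 3-fold the MPP and GMP counts were 0. For the 119 genes of the lists, 29 in MPPs and 13 in GMPs were over 1.5-fold, and 3 and 0 over 3-fold. The 1 list gene over 2-fold in GMPs, *Kmo*, gave 0 under the filter and the floor. The filter and the brightest probe set cannot move a member's value. Of 96 member differences rescaled, 1 moved by at least 0.2, and of 32 under the floor, which touches only values under 5, 3 did, all of *Irf4*. Among list and marker genes, the calls of *Tlr3* and *Kmo* in MPPs and of *Kmo*, *Cd79a* and *Ebf1* in GMPs were lost under the floor, and that of *Unc93b1* in MPPs under lowess and quantile scaling. *Runx3* (quantile), *Car2* (lowess and quantile) and the monocyte marker *Ccr2* (median centring, at -1.05) passed 2-fold in MPPs. Centring moved the median of all genes by more than 0.1 only between the Bcl11a-/- populations, by -0.11. Array signal over background was not available, so differences at signals under 5 are the least certain.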
